A study of Mus musculus with 24 samples.

Results

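The genes described here encode the nuclear subunits of the respiratory chain (complexes I to IV) and of the ATP synthase (complex V). They were taken as every gene with a probe set of its own whose symbol begins with Ndufa, Ndufb, Ndufc, Ndufs, Ndufv, Sdha, Sdhb, Sdhc, Sdhd, Uqcr, Cox4, Cox5, Cox6, Cox7, Cox8 or Atp5, and where a gene had several probe sets, the one brightest on average across the 24 arrays was read. Assembly factors and pseudogenes were left out, among them 4 Sdhaf genes whose symbols share the letters of Sdha. This gave 82 of 18193 genes on the array. Of these, 75 exceeded the array median on 3 or more arrays and were among the 11208 genes tested: 34 of complex I, 4 of complex II, 8 of complex III, 12 of complex IV and 17 of complex V. The other 7 are described at the end. Ndufa4 is counted with complex I by its symbol, although it is now regarded as a subunit of complex IV.

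RNA of B cell populations sorted from the spleen of female C57BL/6 mice, 8 to 10 weeks old, was hybridized to Affymetrix Mouse Genome 430 2.0 arrays, with 3 arrays in each of 8 groups. Follicular B cells were sorted as B220+ AA4.1- CD21int CD23+ and their marginal zone counterparts as B220+ AA4.1- CD21high CD23low, and a further group was follicular B cells kept for 6 h with anti-IgM F(ab')2 at 10 μg/ml and an antibody to CD40 at 2 μg/ml. The other groups came from mice immunized with the hapten conjugate NP-CG in alum and bound the hapten NIP: IgG1+ CD38+ PNA- memory B cells and IgG1+ CD38dull PNA+ germinal center B cells at day 7 and at day 40, and CD138+ plasma cells with the lambda light chain at day 7. The stimulated cells are the only cultured group, so stimulation and time in culture cannot be told apart, and the immunized groups differ from the follicular cells in immunization, isotype and depletion antibodies as well as in cell type. The labels do not state whether separate mice gave the 3 samples of a group, so p-values measure the spread between these samples, which may be technical.

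In the inner mitochondrial membrane, complex I takes electrons from NADH and complex II takes them from succinate. Complex III passes them from ubiquinol to cytochrome c and complex IV from cytochrome c to oxygen, and complex V makes ATP from the proton gradient that results. Most subunits are encoded in the nucleus, and several subunits of complex IV exist as tissue-specific isoforms of muscle or testis. Resting lymphocytes are known for low respiration, and activated B cells and plasma cells for a raised one.

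Promoters of 6 genes on which the results turn are printed first. Uqcr11, Ndufs5 and Ndufa1 were highest in plasma cells, Ndufb1 was detected in germinal center cells, and Cox7a2l and Cox7c fell on stimulation. The 250 bases before the start of each gene are from RefSeq on GRCm38.p6, in lower case, with a motif match in capitals.
Uqcr11, chr10:80406822-80407071, minus strand: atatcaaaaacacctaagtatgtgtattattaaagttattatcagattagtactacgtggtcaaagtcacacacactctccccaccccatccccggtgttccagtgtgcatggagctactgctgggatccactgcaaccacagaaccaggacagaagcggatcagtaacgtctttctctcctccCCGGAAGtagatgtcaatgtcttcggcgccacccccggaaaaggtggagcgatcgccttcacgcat
Ndufs5, chr4:123718187-123718436, minus strand: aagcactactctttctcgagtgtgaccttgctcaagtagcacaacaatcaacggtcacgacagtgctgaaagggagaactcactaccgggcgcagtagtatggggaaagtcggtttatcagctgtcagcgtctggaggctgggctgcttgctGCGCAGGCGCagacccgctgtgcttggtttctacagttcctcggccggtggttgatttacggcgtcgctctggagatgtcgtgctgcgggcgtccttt
Ndufa1, chrX:37191239-37191488, minus strand: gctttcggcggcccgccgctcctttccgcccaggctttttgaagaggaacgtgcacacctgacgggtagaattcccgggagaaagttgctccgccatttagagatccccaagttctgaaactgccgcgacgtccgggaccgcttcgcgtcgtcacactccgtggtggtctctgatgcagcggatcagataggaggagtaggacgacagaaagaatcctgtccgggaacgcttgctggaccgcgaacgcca
Ndufb1, chr12:101975739-101975988, minus strand: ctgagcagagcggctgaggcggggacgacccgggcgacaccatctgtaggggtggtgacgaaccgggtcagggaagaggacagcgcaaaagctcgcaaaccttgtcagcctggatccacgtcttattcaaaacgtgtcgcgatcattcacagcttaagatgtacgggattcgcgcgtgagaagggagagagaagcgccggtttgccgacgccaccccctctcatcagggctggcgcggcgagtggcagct
Cox7a2l, chr17:83514334-83514583, minus strand: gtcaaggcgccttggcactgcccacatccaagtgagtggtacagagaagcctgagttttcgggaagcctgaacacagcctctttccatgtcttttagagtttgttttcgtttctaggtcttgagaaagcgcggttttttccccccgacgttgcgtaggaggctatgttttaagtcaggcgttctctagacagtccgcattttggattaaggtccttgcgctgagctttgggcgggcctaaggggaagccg
Cox7c, chr13:86046796-86047045, minus strand: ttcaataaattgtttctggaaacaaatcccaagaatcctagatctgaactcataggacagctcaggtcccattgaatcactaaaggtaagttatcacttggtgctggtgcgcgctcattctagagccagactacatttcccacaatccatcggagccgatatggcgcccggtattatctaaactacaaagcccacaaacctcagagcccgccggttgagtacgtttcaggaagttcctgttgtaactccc
Of the 82 genes, 67 had a promoter in the RefSeq table, and windows of 250 bases before to 50 after the start were searched on both strands. The NRF1 letters (GCGC, any base, then TGCGC) were found in 15 of the 67 (22.4%), in 12.2% of the promoters of all genes tested and in 5.19% of all promoters. The ETS letters CCGGAAG were found in 17 (25.4%), against 21% and 9.93%, the YY1 letters AAGATGGCG in 6 (8.96%), against 3.75% and 1.64%, and the ERR letters TCAAGGTCA in 2 (2.99%), against 0.33% and 0.466%. No motif holds another. Uqcr11 has an ETS match at position -66 and Ndufs5 an NRF1 match at position -98, whereas the other 4 promoters shown hold none of these letters in the window. A match of letters is a description and not a binding site.

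Plasma cells and germinal center B cells had the highest levels of these genes as a group, and memory cells of day 40 and follicular cells the lowest. The mean log2 signal over the 75 genes, taken relative to the follicular mean, was 0.764, 0.842 and 0.834 on the 3 plasma cell arrays. It was 0.631, 0.697 and 0.552 on the day 7 germinal center arrays and 0.508, 0.451 and 0.646 on those of day 40. By this mean, every plasma cell array lay above every other array. The germinal center arrays of both days lay above all follicular, marginal zone and memory arrays. Stimulated follicular cells gave 0.228, 0.253 and 0.502, marginal zone cells 0.0664, 0.165 and 0.200, and follicular cells -0.109, 0.120 and -0.0112. Memory cells of day 7 gave 0.370, 0.134 and 0.134, and memory cells of day 40 gave 0.0281, -0.132 and -0.123, inside the range of the follicular arrays or just below it. These means include Ndufb1 and Cox6b2, which were at background in follicular cells. The median over the 75 genes ran from 0.69 to 0.757 on the plasma cell arrays. It ran from 0.497 to 0.693 on the day 7 germinal center arrays and from 0.403 to 0.547 on those of day 40. Because each array holds RNA of many cells, fewer cells of a type and less RNA per cell cannot be told apart.

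**Figure D1:**
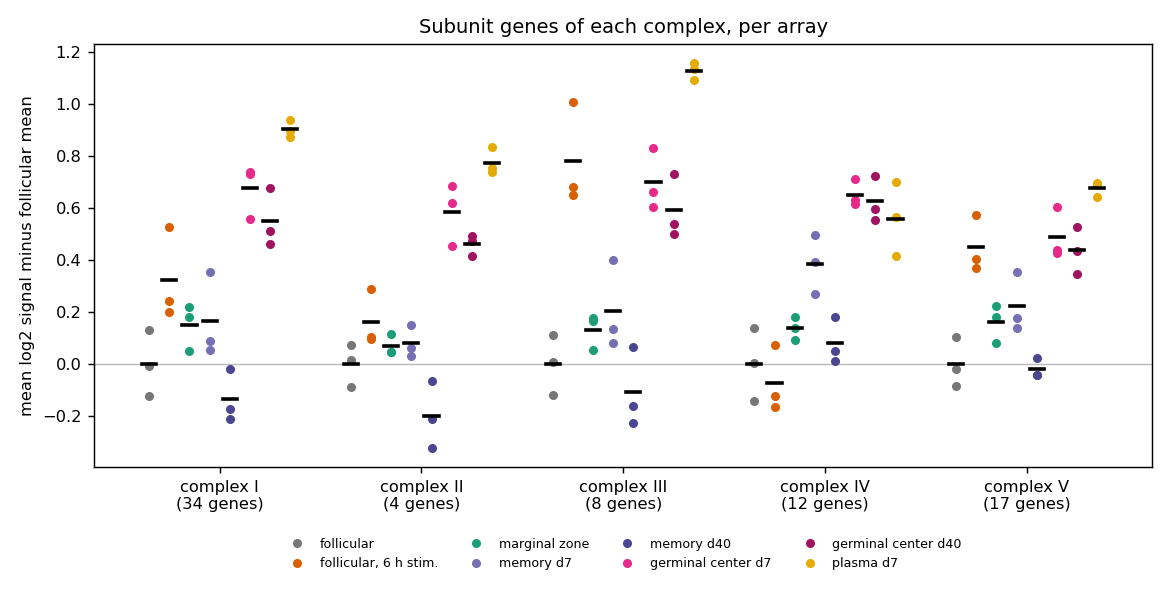
Mean log2 signal of the tested subunit genes of each complex on each array, minus the follicular mean; points are arrays, colours are the 8 cell groups and black bars are means of 3 arrays. Plasma cell arrays are highest in complexes I, II, III and V, while stimulated cells are high in complex III and near 0 in complex IV.

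Across the 8 groups, 73 of the 75 genes differed at an adjusted p under 0.05 (limma F test), as did 91.3% of all genes tested. The highest group mean was in plasma cells for 43 genes, in day 7 germinal center cells for 16 and in stimulated cells for 8, and in follicular cells for none. The lowest was in memory cells of day 40 for 34 genes, in follicular cells for 19 and in stimulated cells for 13. These counts of highest and lowest groups were not made over all genes. The 2 genes that missed the threshold were Atp5d, the delta subunit of the central stalk (adjusted p = 0.228), and Ndufb9, an accessory subunit of the membrane arm (adjusted p = 0.117). Ndufb9 was named after its values were seen: its day 40 memory arrays read 13.79, 11.26 and 11.33, so that the first stood far above the others, while its plasma cell arrays read 13.06, 13.21 and 13.07 and its follicular arrays 11.32, 11.95 and 11.63.

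Markers of other cells were read on the same arrays. Among 7 myeloid markers, the mean log2 signal was 3.38 to 3.62 on the follicular arrays, 8.80 to 9.15 on the plasma cell arrays, 5.14 to 8.29 and 5.43 to 8.02 on the memory arrays of day 7 and day 40, and 3.34 to 5.66 and 3.26 to 8.22 on the germinal center arrays. In plasma cells 5 of the 6 myeloid markers tested were higher than in follicular cells and Adgre1 was lower (limma), while Itgam read 2.15 to 2.16. S100a9, a neutrophil and monocyte gene, read 14.23, 14.31 and 14.07 in plasma cells and stood at the array floor of 2.15 on every follicular array, on day 7 germinal center replicate 3 and on day 40 germinal center replicates 2 and 3. The mean of the subunit genes relative to follicular cells was 0.552, 0.451 and 0.646 on those 3 germinal center arrays. On day 7 memory replicate 1 the germinal center markers Gcsam, Mybl1 and S1pr2 read 9.21, 9.95 and 10.81, against 2.26, 3.27 and 4.99 on replicate 2, and S100a9 read 13.56. Lyz2 and S100a8 were also highest of the group there, at 11.17 and 12.36. Itgam, Adgre1 and Mpeg1 were instead lowest of the group there, at 2.24, 5.22 and 11.35, and Csf1r read 2.16. Of 5 T cell markers, Cd3e, Cd3g and Cd3d stood at the floor on all plasma cell arrays and reached at most 4.18 elsewhere, on day 40 memory replicate 2. The other two were higher in plasma cells, where Cd4 read 6.58, 3.24 and 5.58 against 2.15 and Cd8a 3.46 to 4.07 against 2.46 in follicular cells. The mean over the 5 was 2.63 to 3.42 on the plasma cell arrays and 2.21 on the follicular arrays, and 2 of the 3 that were tested rose (limma). Of 4 NK cell markers, Ncr1 was at the floor on every array, Gzma read 4.97, 4.70 and 3.56 in plasma cells and 2.15 in follicular cells, Nkg7 read 8.95 on plasma cell replicate 2, and Prf1 was above the median on all arrays. Their mean was 4.44 to 6.37 on the plasma cell arrays and at most 4.04 on the follicular arrays. The B cell genes Cd79a, Cd79b and Ms4a1 were above the array median on all arrays, and Pax5 was at the floor in plasma cells. The part of RNA from such cells in the plasma cell, memory and germinal center results was not tested.

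In plasma cells against follicular B cells, 64 of the 75 genes were higher and 2 lower (limma, adjusted p under 0.05), where 28.8% of all genes tested were higher and 32.8% lower. The median log2 difference of the subunit genes was 0.72, a 1.64-fold higher level, against -0.05 over all genes. All 8 genes of complex III rose, as did 30 of 34 in complex I, 14 of 17 in complex V, 9 of 12 in complex IV and 3 of 4 in complex II. A rise of at least 1 on the log2 scale was reached by 25 genes and by 20.3% of all genes.

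Ndufa1, a small membrane subunit needed for assembly of complex I, rose most. Its log2 signal was 14.14, 14.09 and 14.26 in plasma cells and 11.35, 11.83 and 11.47 in follicular cells, a difference of 2.61 ± 0.16 (SE; limma adjusted p = 5.46e-11). No array of any other group exceeded 12.87, so plasma cells stood apart from all 7 other groups. Ndufs5, another accessory subunit of complex I, behaved alike, with 12.99, 12.85 and 13.09 in plasma cells, 10.76, 10.95 and 10.83 in follicular cells and a difference of 2.13 ± 0.18. Germinal center cells lay between, at 11.61, 11.91 and 11.64 for Ndufs5 on day 7, and these arrays overlapped neither group.

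Of the 5 small subunits of complex III, Uqcrq and Uqcr11 rose most. Uqcr11 read 12.34, 12.32 and 12.37 in plasma cells against 9.75, 10.38 and 10.00 in follicular cells, a difference of 2.30 ± 0.25 (limma adjusted p = 1.96e-07). Uqcrq read 12.60, 12.49 and 12.80 in plasma cells against 9.72, 10.36 and 10.35, a difference of 2.49 ± 0.23. In both genes the plasma cell arrays were separate from the follicular and germinal center arrays. The other three, Uqcr10, Uqcrh and Uqcrb, rose by 1.04, 0.55 and 0.28 over follicular cells. Ndufa4 (1.97 ± 0.24), Ndufb2 (1.64 ± 0.14), a membrane arm subunit, and Atp5g1 (1.58 ± 0.16), which encodes the c subunit of the ATP synthase ring, were also among the rises.

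The 2 genes lower in plasma cells were Cox7c, a small subunit of complex IV (-1.19 ± 0.43, limma adjusted p = 0.0224), and Sdha, the flavoprotein that oxidizes succinate (-0.32 ± 0.10, adjusted p = 0.0115). Sdha read 12.85, 12.96 and 12.83 against 13.25, 13.25 and 13.10 in follicular cells, a small shift without overlap. With a common upper quartile the Sdha difference was -0.17 and not called. The Cox7c call was lost with the mean of its probe sets (-1.10), with cross-hybridizing ones left out (-1.02), and without follicular replicate 2 (-1.10), follicular replicate 3 (-1.17) or plasma cell replicate 1 (-1.14). The partners of Sdha in complex II moved the other way: the iron-sulfur subunit Sdhb rose by 1.34 and the membrane anchors Sdhc and Sdhd by 1.30 and 0.78. Within complex V, the 5 genes of the F1 part (catalytic head and central stalk) had a median of 0.22, with 2 of 5 higher, while the 3 c ring genes had a median of 0.86, the 4 genes of the outer stalk 0.77 and the 5 accessory membrane genes 1.02, and all of those 12 rose. These subgroups follow textbook structure, were formed with values known and were not tested against each other.

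**Figure D2:**
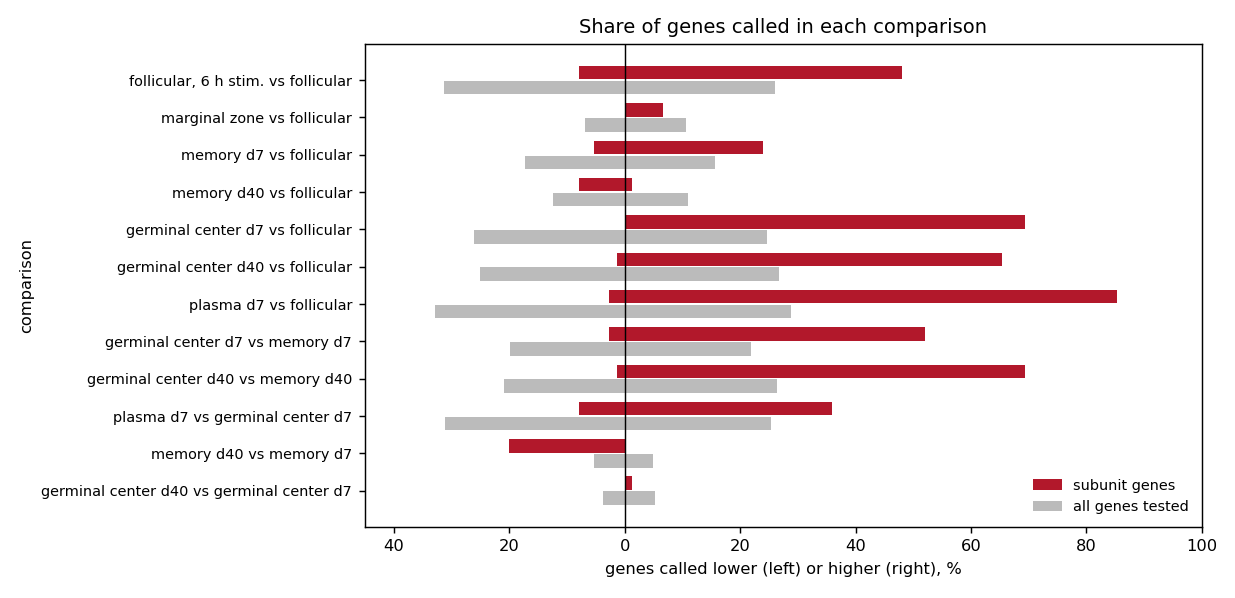
Share of the 75 subunit genes (red) and of all 11208 genes tested (grey) called lower, to the left, or higher, to the right, in each of the 12 comparisons (limma, adjusted p under 0.05). Of the subunit genes, 85.3% were higher in plasma cells and 69.3% in day 7 germinal center cells than in follicular cells, and 20% were lower in day 40 than in day 7 memory cells.

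Against day 7 germinal center cells, 27 subunit genes were higher in plasma cells and 6 lower (limma), where 25.4% of all genes were higher and 31.2% lower, and the median difference was 0.20. The rises were led by Uqcrq (1.47 ± 0.23), Ndufa1 (1.39 ± 0.16) and Sdhc, which read 11.69, 11.83 and 11.72 in plasma cells and 10.39, 10.44 and 10.30 in germinal center cells (1.37 ± 0.16). Sdhc in germinal center cells overlapped the follicular arrays of 10.62, 10.38 and 10.35, and the plasma cell arrays lay above every array of the other groups. The falls were Ndufb1, Cox7a2l, Cox7a1, Sdha, Atp5a1 and Atp5c1, of which Cox7a2l (-0.41), Sdha (-0.21) and Atp5c1 (-0.15) were not called under a common upper quartile. Cox7a2l was also not called without plasma cell replicate 2 (-0.34) or without day 7 germinal center replicate 2 (-0.42) or 3 (-0.51), Sdha without day 7 germinal center replicate 1 (-0.26) and Atp5c1 without replicate 1 (-0.22) or 2 (-0.25) of those cells. Atp5a1, the catalytic head's alpha subunit, read 14.05, 14.33 and 14.04 in plasma cells and 14.79, 14.77 and 14.61 in germinal center cells, a fall of 0.58 with no overlap. For Atp5c1, the gamma subunit that turns inside the head, the fall of 0.26 turned to a rise of 0.58 in the probe set used when cross-hybridizing ones were left out.

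Germinal center B cells of day 7 had 52 of the 75 genes higher than follicular cells and none lower (limma), where 24.6% of all genes were higher and 26.1% lower. At an unadjusted p under 0.05, 56 were higher and 1 lower, a count not made over all genes. The median difference was 0.63 over the 75 genes, 0.78 in complex III, 0.65 in complex I, 0.63 in complex IV, 0.50 in complex V and 0.48 in complex II. On day 40, 49 genes were higher and 1 lower, against 26.8% and 25% of all genes, with a median of 0.48. The 1 lower gene was Ndufs7, a core subunit that carries an iron-sulfur cluster (-0.37 ± 0.14). Its call was lost without follicular replicate 2 or 3 or day 40 germinal center replicate 1 or 2 (-0.31 to -0.36), with the mean of its probe sets (-0.23) and with cross-hybridizing ones left out (-0.09).

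Sdhb rose most among the genes measured well above the floor. Its arrays read 12.93, 12.98 and 12.48 on day 7 and 12.67, 12.53 and 12.68 on day 40, against 11.33, 11.46 and 11.24 in follicular cells, differences of 1.45 ± 0.17 and 1.28 ± 0.17 (limma adjusted p = 9.82e-07 and 3.7e-06). Germinal center and plasma cell arrays overlapped each other for Sdhb and lay above all other arrays. Ndufa1 (1.22), Ndufab1 (1.19), the acyl carrier protein of mitochondria, Uqcr11 (1.17) and Uqcr10 (1.07), a further small subunit of complex III, came next on day 7. The same genes were higher on day 40, by 0.97, 1.24, 0.91 and 0.92. For Ndufab1 the mean of its probe sets was only 0.26 higher on day 7, and that difference was not called.

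A pair of genes went from background to a clear signal. Ndufb1, an accessory subunit of complex I, read 8.00, 7.78 and 7.91 on the day 7 germinal center arrays and 7.63, 6.76 and 7.68 on those of day 40. It read 2.23, 2.38 and 2.28 in follicular cells, 2.44, 2.29 and 2.28 in plasma cells and 2.32, 2.26 and 2.27 in day 40 memory cells, all at or below the median of their arrays. Only 1 array outside the germinal center groups gave a signal, day 7 memory replicate 1 at 6.48. Replicates 2 and 3 of that group read 2.32 and 2.40. The first replicate also carried germinal center markers. On day 40 memory replicates 1 and 2, Gcsam and S1pr2 gave a lower signal and Ndufb1 stayed at background. Gcsam read 6.33 and 7.46 on those 2 arrays against 9.21 on day 7 memory replicate 1. S1pr2 read 8.94 and 8.98 against 10.81, and Mybl1 3.67 and 6.01 against 9.95. Whether germinal center RNA gave the Ndufb1 signal on day 7 memory replicate 1 was not tested. The level in germinal center cells was at least 43.2-fold higher on day 7 and at least 29.7-fold higher on day 40 than in follicular cells (limma adjusted p = 1.3e-06 and 3.7e-06), and at least 40.6-fold higher than in plasma cells, taking the array median as the level of a dim probe set. Ndufb1 was among the genes tested through its germinal center arrays, so its p-values there are not independent of that selection. Ndufb1 had 1 probe set, so no other reading of it was at hand.

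Cox6b2, known in mammals as the testis isoform of complex IV subunit 6B, was the other. It read 6.40, 5.71 and 6.40 on the day 40 germinal center arrays, 5.03, 4.29 and 3.81 on those of day 7 and 2.88, 6.43 and 3.90 in plasma cells, and at most 2.39 on every other array. Every array of those 3 groups was above every array of the other 5. Only these 9 arrays exceeded their median and so let Cox6b2 be tested, and its p-values there are not independent of that selection. The rise over follicular cells was at least 13.1-fold on day 40, 3.77-fold on day 7 and 3.84-fold in plasma cells, and Cox6b2 was the 1 subunit gene of 75 that differed between the days in germinal center cells (1.79 ± 0.54, limma adjusted p = 0.0443), where 5.21% of all genes were higher and 3.78% lower on day 40. That call was lost in 5 of the 6 fits that left out 1 germinal center array each. The common isoform Cox6b1 was 0.72 ± 0.13 higher on day 7, 0.61 ± 0.13 on day 40 and 0.62 ± 0.13 in plasma cells. Cox7a1, the muscle isoform of subunit 7A, was called higher on day 7 with arrays of 2.63, 2.41 and 2.83 against the floor value of 2.15, and its day 40 arrays read 2.40, 2.22 and 2.51, which is too close to background to give a level.

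**Figure D3:**
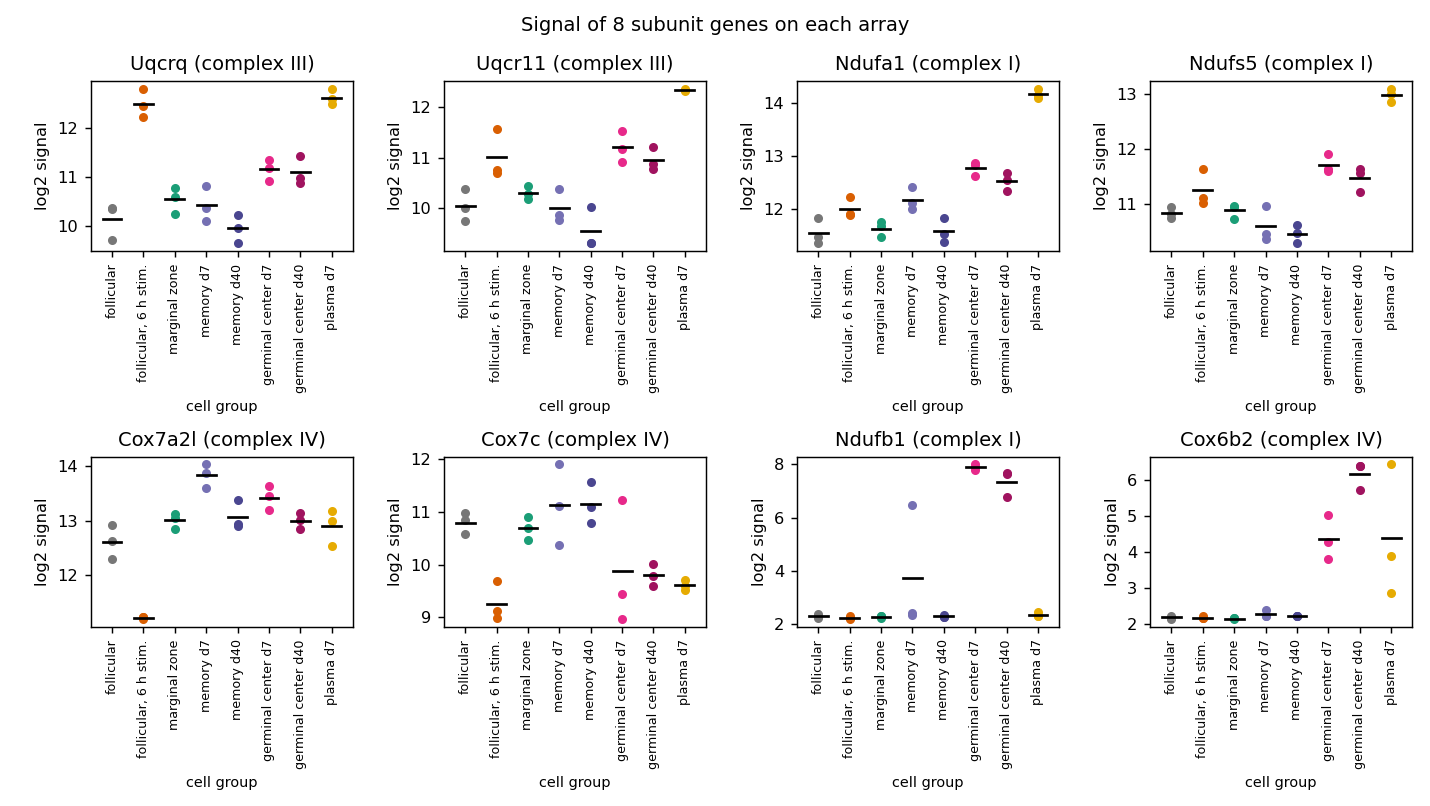
Log2 signal of 8 subunit genes on each of the 24 arrays; points are arrays, bars are means of 3, and each panel has its own vertical scale. Uqcrq, Uqcr11, Ndufa1 and Ndufs5 are highest in plasma cells, Cox7a2l and Cox7c are low in stimulated cells, and Ndufb1 is above background in germinal center cells and on 1 day 7 memory array.

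Set against memory cells of the same day, germinal center cells had 39 genes higher and 2 lower on day 7 (21.9% and 19.8% of all genes) and 52 higher and 1 lower on day 40 (26.3% and 20.9%), by limma. The medians were 0.35 and 0.58. With 1 array left out, 28 to 45 genes were higher on day 7, the lowest count without day 7 germinal center replicate 2 and the highest without day 7 memory replicate 1, and with only the compared groups in the fit 25 were. Of all genes tested, 18.9%, 21.7% and 14.7% were higher in those fits, in the order named. Uqcr11 was 1.21 higher on day 7 and 1.41 on day 40, Ndufab1 1.06 and 1.09, Ndufs5 1.12 and 1.01, and Sdhb 0.97 and 1.19. With the mean of its probe sets, Ndufab1 differed by 0.30 on day 7 and was not called. The difference between the days in this change was tested as an interaction, added after the data were seen. None of the 75 genes passed an adjusted p of 0.05 (limma), where 6.13% of all genes did, and the smallest adjusted p was 0.0817. An unadjusted p under 0.05 was reached by 11, a count not made over all genes.

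Cox7c ran against its complex in these comparisons. It read 9.44, 8.97 and 11.23 on the day 7 germinal center arrays and 9.60, 9.78 and 10.01 on those of day 40, against 11.11, 10.38 and 11.90 and 11.10, 10.79 and 11.56 in memory cells of day 7 and day 40. The falls were 1.25 ± 0.43 (limma adjusted p = 0.0253) and 1.35 ± 0.43 (adjusted p = 0.0141). On day 40 the groups did not overlap, whereas on day 7 replicate 3 of the germinal center cells lay within the memory range. The day 7 call was lost without day 7 germinal center replicate 1 (-1.03) or 2 (-0.80), without day 7 memory replicate 3 (-0.87), with no filter on dim genes and with only the compared groups in the fit, and the day 40 call without day 40 memory replicate 3 (-1.15) and with the mean of the probe sets (-1.48). A second, dimmer probe set of Cox7c differed by -2.33 and -1.61, neither of them called. Ndufa6, an accessory subunit of complex I that binds the acyl carrier protein, was also lower on day 7, at 10.46, 10.55 and 10.46 against 10.98, 11.47 and 11.26 (-0.75 ± 0.21).

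In follicular cells stimulated for 6 h, 36 genes were higher and 6 lower than in unstimulated cells (limma), where 26.1% of all genes were higher and 31.3% lower, with a median difference of 0.34. The complexes moved unequally: 6 of 8 genes of complex III, 10 of 17 of complex V and 16 of 34 of complex I were higher, but 3 of 12 of complex IV, whose median was 0.05. With all arrays set to the same upper quartile, the median of all genes moved from -0.02 to 0.30 and the share of higher among called genes from 45.4% to 60%. Under that scaling 57 subunit genes were higher and 4 lower, against 36.4% and 24.3% of all genes. The median of the subunit genes moved from 0.34 to 0.65.

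Uqcrq rose most on stimulation, with 12.24, 12.46 and 12.81 against 9.72, 10.36 and 10.35 (2.36 ± 0.23, limma adjusted p = 6.6e-08). The stimulated and plasma cell arrays of Uqcrq overlapped and stood above all others. This probe set has a name that marks possible cross-hybridization, and a dimmer one of the same gene, with a mean of 6.01, rose by only 0.10 on stimulation but by 2.01 in plasma cells. Ndufab1 rose from 10.81, 11.15 and 10.94 to 12.34, 12.41 and 12.80 (1.55 ± 0.17). Other rises without overlap were Ndufa12, an accessory subunit of complex I (1.41 ± 0.17, but -0.14 in the probe set used when cross-hybridizing ones were left out), Uqcr10 (1.38 ± 0.16), Cox5a, a structural subunit of complex IV (1.19 ± 0.14), and Atp5g1 (1.18 ± 0.16).

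The 6 falls were Cox7c, Cox7a2l, Ndufa6, Ndufb11, Ndufb10 and Sdha. Cox7a2l, a factor that joins complexes III and IV into supercomplexes and of which C57BL/6 mice are known to carry a shortened form, read 11.24, 11.20 and 11.23 in stimulated cells against 12.30, 12.92 and 12.63 (-1.39 ± 0.19, limma adjusted p = 3.97e-06). These were its lowest arrays of all 24, and the other probe sets of the gene fell by 1.58 and 1.62. Ndufa6 fell from 10.37, 10.94 and 10.79 to 9.14, 9.61 and 9.84 (-1.17 ± 0.21) and Cox7c from 10.58, 10.97 and 10.84 to 8.98, 9.11 and 9.69 (-1.54 ± 0.43), without overlap in either. Ndufb11 (-0.73 ± 0.10) and Ndufb10 (-0.48 ± 0.14), subunits of the membrane arm, and Sdha (-0.33 ± 0.10) fell by less. With the common upper quartile Ndufb10 (-0.16) and Sdha (-0.01) were not called, nor was Sdha without stimulated replicate 1 (-0.27). The dimmer probe set of Cox7c, read when cross-hybridizing ones were left out, differed by -2.00 and was not called.

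**Figure D4:**
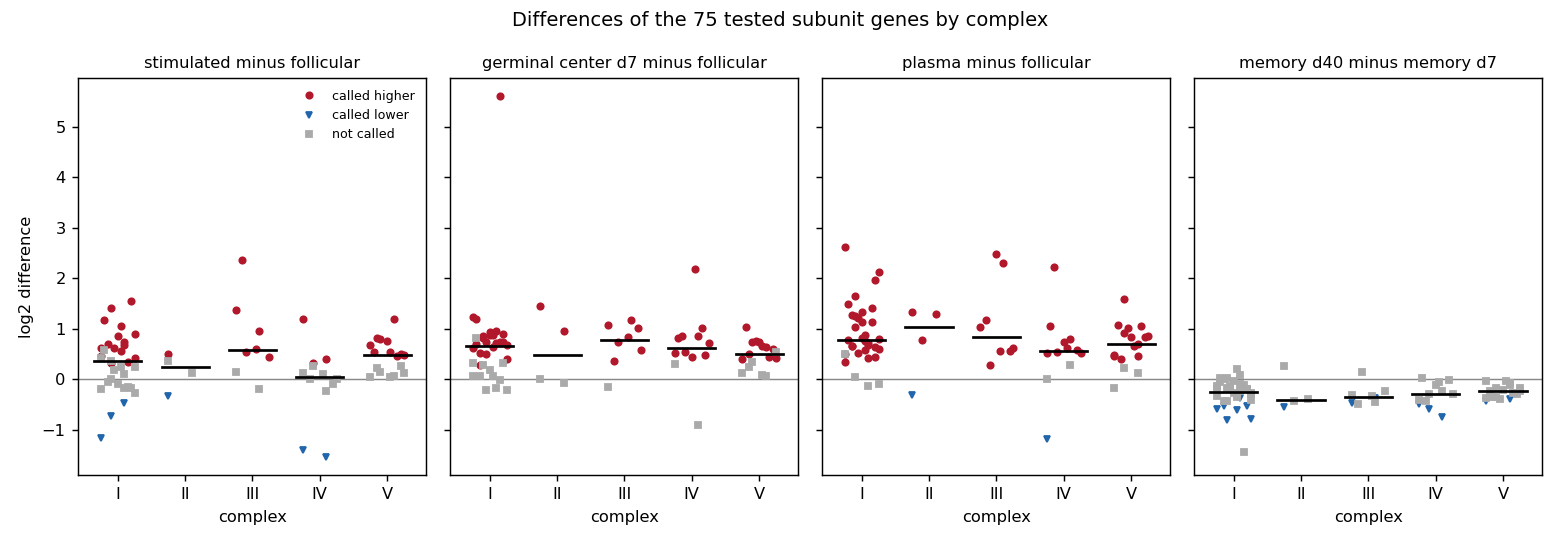
Log2 difference of each of the 75 tested genes by complex in 4 comparisons; circles were called higher, triangles lower, squares not called (limma, adjusted p under 0.05), and bars are medians. Complex IV is centred near 0 on stimulation (median 0.05), while nearly all genes lie above 0 in plasma cells.

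Memory cells of day 7 had 18 genes higher and 4 lower than follicular cells (limma; 15.7% and 17.2% of all genes), with a median of 0.19. Cox7a2l rose most, with 14.03, 13.59 and 13.87 against 12.30, 12.92 and 12.63 (1.21 ± 0.19, adjusted p = 6.49e-05), and day 7 memory cells were its highest group. Atp5md, a small subunit of the synthase dimer (0.74 ± 0.11), Cox8a (0.73 ± 0.16) and Ndufa1 (0.62 ± 0.16) followed. Next was the Rieske iron-sulfur protein Uqcrfs1 of complex III (0.61 ± 0.08). The Ndufa1 call was lost with only the compared groups in the fit. The falls were Ndufs7 (-0.64 ± 0.14), Ndufa5 (-0.60 ± 0.22), Sdha (-0.33 ± 0.10) and Ndufs1 (-0.31 ± 0.11), of which Ndufs7 and Ndufs1 carry iron-sulfur clusters. Replicate 1 carried germinal center markers and the myeloid genes Lyz2, S100a8 and S100a9. It was the highest of its group for 54 of the 75 genes and the lowest for 9, counts not made over all genes. Without this replicate 14 subunit genes were higher, where 14% of all genes were. With 1 array left out, whichever of the 6, only 1 or 2 genes were lower, where 13.4% to 16.5% of all genes were. Ndufa5 and Ndufs1 lost their call in all 6 fits and Sdha in 3, without follicular replicate 1 or 2 or day 7 memory replicate 1. For Cox8a, the mean of its probe sets (0.47) was not called.

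On day 40, memory cells had 1 gene higher and 6 lower than follicular cells (limma), with a median of -0.06. These are 1.33% and 8% of the subunit genes, both below the 11% and 12.4% of all genes. The 1 gene was Atp5md, at 12.24, 12.07 and 12.09 against 11.66, 11.59 and 11.29 (0.62 ± 0.11), with no overlap. The falls were Sdhc (-0.66 ± 0.16), Ndufs7 (-0.56 ± 0.14), Ndufb7 (-0.51 ± 0.11), Ndufa3 (-0.38 ± 0.13), Ndufs1 (-0.36 ± 0.11) and the c subunit gene Atp5g3 (-0.28 ± 0.09). Without follicular replicate 2, or without day 40 memory replicate 2, 3 were lower, where 8.6% and 9.26% of all genes were. Ndufa3, Ndufs1 and Atp5g3 each lost their call in 4 of the 6 fits that left out 1 array. The mean of the probe sets of Ndufa3 was 0.10 higher. Sdhc was not called with only the compared groups in the fit. With cross-hybridizing probe sets left out, Ndufs7 (-0.47) and Ndufb7 (-0.39) were not called.

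Between the memory groups, 15 genes were lower on day 40 than on day 7 and none higher (limma), where 5.36% of all genes were lower and 4.82% higher, and the median was -0.29. At an unadjusted p under 0.05, 36 were lower and 1 higher, a count not made over all genes. Ndufa4 read 10.58, 11.10 and 11.30 on day 40 against 12.09, 11.67 and 11.65 (-0.81 ± 0.24), and Cox7a2l 13.37, 12.91 and 12.94 against 14.03, 13.59 and 13.87 (-0.76 ± 0.19). In both genes all day 40 arrays were below all day 7 arrays. Ndufa8, a complex I subunit of the intermembrane space (-0.79 ± 0.15), Ndufb2 (-0.61 ± 0.14), Cox8a (-0.60 ± 0.16) and Ndufa1 (-0.60 ± 0.16) also fell. Ndufb2 differed by 0.11 in the probe set used when cross-hybridizing ones were left out and by -0.36 in the mean of its probe sets, and Cox8a by -0.03 in the mean of its probe sets, none of them called. Of the 6 fits that left out 1 array, the call was lost in 5 for Ndufa4 and in 3 each for Cox7a2l, Cox8a and Ndufa1. The count rests in part on single arrays: it was 6 without day 7 memory replicate 1, 9 without day 40 memory replicate 2 and 8 without day 40 memory replicate 3, and 5 with only the compared groups in the fit. Of all genes tested, 4.64%, 3.57%, 3.98% and 1.73% were lower in those fits, in the same order, so calls were lost among all genes as well.

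Marginal zone cells had 5 genes higher and none lower than follicular cells (limma; 10.6% and 6.81% of all genes), with a median of 0.14. At an unadjusted p under 0.05, 13 were higher and none lower, a count not made over all genes. The 5 were Ndufa10 (0.49 ± 0.14), Ndufa8 (0.48 ± 0.15), Atp5pb, the b subunit of the outer stalk (0.37 ± 0.11), Atp5c1 (0.31 ± 0.09) and Cox4i1 (0.29 ± 0.09). The share called is below that of all genes, and between 1 and 6 genes were called when 1 array was left out, where 7.68% to 9.83% of all genes were higher. Each of the 5 lost its call in 3 to 5 of those 6 fits.

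**Figure D5:**
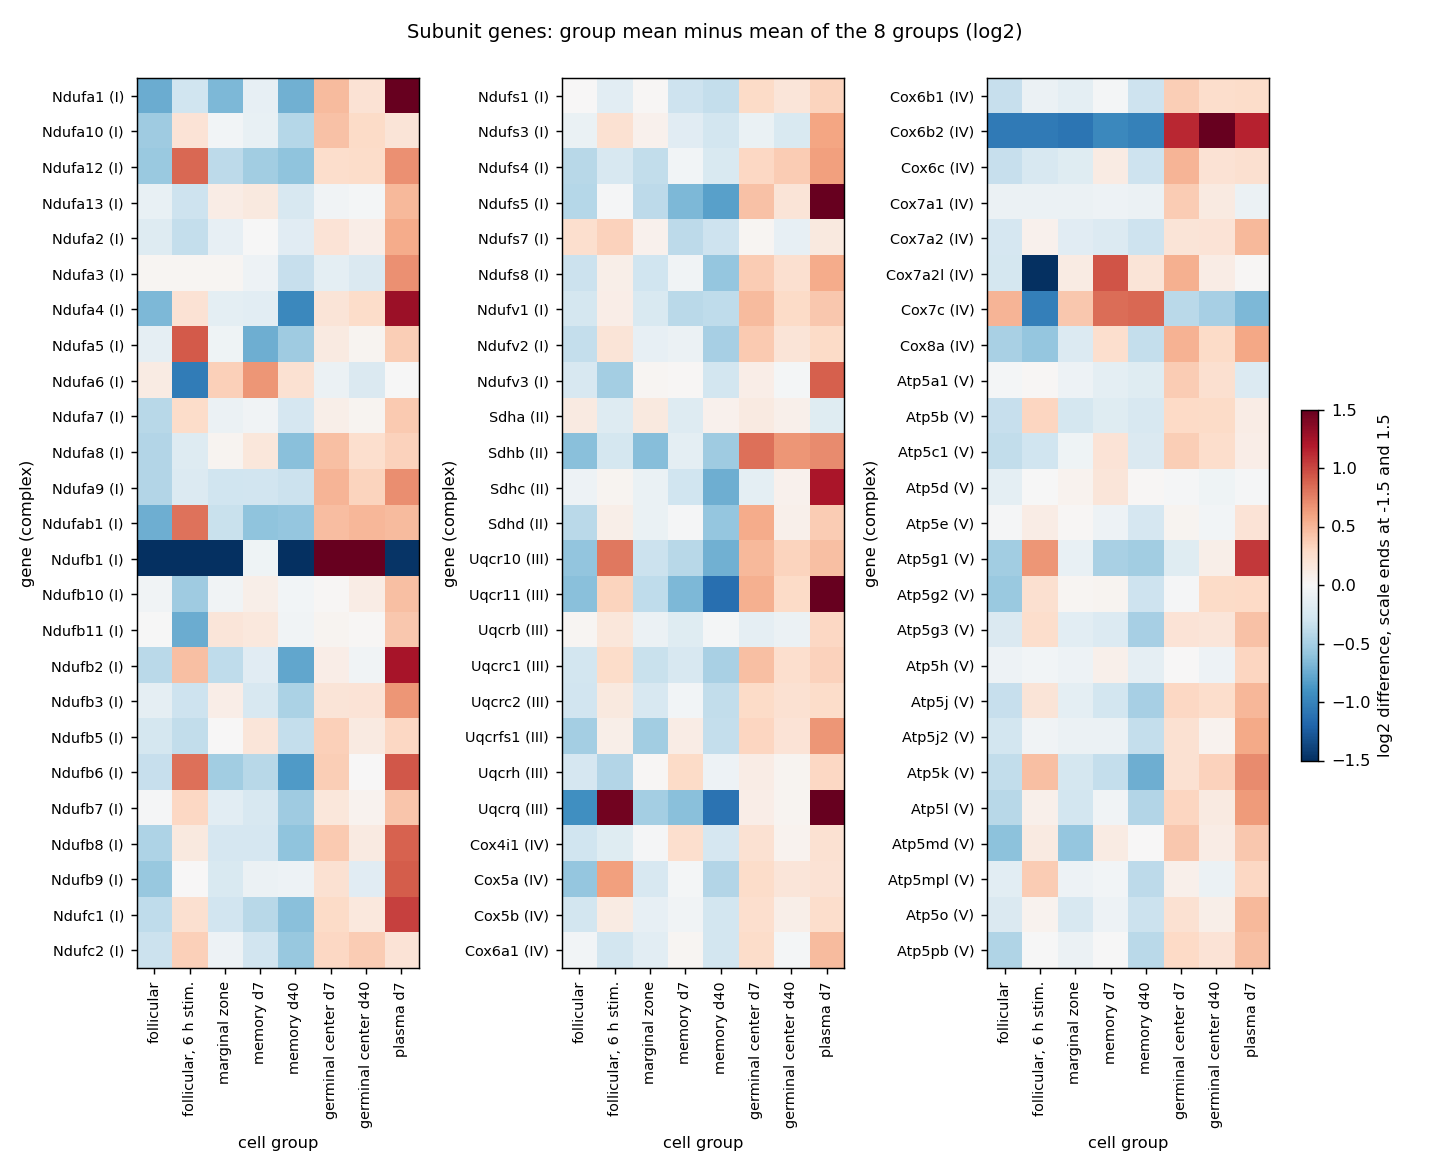
Group mean of each of the 75 tested genes minus its mean over the 8 groups, on the log2 scale with the colours ending at -1.5 and 1.5; the complex is given after each symbol. The plasma cell and germinal center columns are red for most genes, but Cox7c is blue in all of them and Ndufb1 in the plasma cell column.

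Isoforms specific to other tissues were mostly at the floor. Cox4i2, an isoform of lung, Cox6a2 and Cox8b of heart and muscle, Cox8c of testis and Ndufa4l2, an isoform induced by low oxygen, ranged between 2.15 and 2.28 over all arrays and were not tested. Cox7b2, of testis, passed the array median on 1 array with 3.20. The probe set that is annotated to Ndufb4 alone stood at 2.15 throughout and was not tested either. Cox8a, Cox4i1 and Cox6a1, the common forms of subunits 8, 4 and 6A, were 1.06 ± 0.16, 0.53 ± 0.09 and 0.52 ± 0.14 higher in plasma than in follicular cells, and Cox7a2, the common counterpart of Cox7a1, was 0.74 ± 0.10 higher (limma, all called). On stimulation Cox7a2 alone of these 4 was called higher (0.31 ± 0.10).

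The c subunit of the ATP synthase ring is encoded by 3 genes that give the same mature protein, and they did not move as one. Atp5g1 read 13.42, 13.30 and 13.68 in stimulated cells, 13.80, 13.84 and 13.95 in plasma cells and 12.40, 12.92 and 12.55 in day 7 germinal center cells, against 12.14, 12.52 and 12.19 in follicular cells. Stimulated and plasma cell arrays were thus separate from the follicular arrays, and day 7 germinal center arrays overlapped them (0.34 ± 0.16, not called). Atp5g2 was 0.79 ± 0.22 higher on stimulation and 0.86 ± 0.22 higher in plasma cells, and Atp5g3 0.48 ± 0.09 and 0.66 ± 0.09 (limma, all called).

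Other genes of the pathway were read from lists. Of 76 mitochondrial ribosomal protein genes, which make the machinery that translates the mitochondrially encoded subunits, 58 were higher and none lower in stimulated than in follicular cells (limma), 47 higher and 1 lower in day 7 germinal center cells and 49 higher and 5 lower in plasma cells. The medians were 0.93, 0.72 and 0.84, against -0.02, -0.0033 and -0.05 over all genes. Of all genes tested, 26.1%, 24.6% and 28.8% were higher and 31.3%, 26.1% and 32.8% lower in these 3 comparisons. Of 45 assembly factors tested, 19 were higher and 6 lower on stimulation, 16 and 3 in day 7 germinal center cells and 16 and 6 in plasma cells. The 35.6% higher in plasma cells is near the 28.8% of all genes, and 13.3% were lower against 32.8%. Coa7, a factor for complex IV, rose by 3.02 ± 0.58 on stimulation, and Ndufaf3, a factor for complex I, fell by 1.95 ± 0.33. Of 5 electron carriers and their partners, 4, 4 and 5 rose in the 3 comparisons, among them cytochrome c, Cycs, by 1.58, 1.41 and 2.30.

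Genes of the TCA cycle feed the chain with electrons. Of 16 genes of the TCA cycle and pyruvate dehydrogenase, 8 were higher and 1 lower on stimulation, 11 and 0 in day 7 germinal center cells and 8 and 2 in plasma cells, each against follicular cells (limma). The shares higher were 50%, 68.8% and 50%. Of all genes tested, 26.1%, 24.6% and 28.8% were higher and 31.3%, 26.1% and 32.8% lower in these comparisons. In plasma against day 7 germinal center cells 2 were higher and 7 lower (12.5% and 43.8%, where 25.4% and 31.2% of all genes were), with a median of -0.33 against -0.05 over all genes. Fumarate hydratase, Fh1, led these falls (-1.82 ± 0.13, adjusted p = 1.04e-09). Of 6 genes of nucleotide and phosphate exchange, 4 were lower and none higher in that comparison, led by the ADP/ATP carrier Slc25a4 (-1.14 ± 0.15) and the outer membrane channel Vdac3 (-1.01 ± 0.11). The lists were not tested against the subunit genes.

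Regulators of mitochondrial biogenesis were 6 higher and 4 lower of 17 on stimulation, 3 and 3 in day 7 germinal center cells and 2 and 9 in plasma cells (limma). These are 35.3% and 23.5% on stimulation, against 26.1% and 31.3% of all genes, 17.6% in each direction in germinal center cells, against 24.6% and 26.1%, and 11.8% and 52.9% in plasma cells, against 28.8% and 32.8%. Myc was 3.58 ± 0.63 higher on stimulation and changed by -1.94 ± 0.63 in plasma cells (adjusted p = 8.16e-05 and 0.0119). In plasma cells Esrra, a nuclear receptor that acts on respiratory chain genes, differed by -3.68 ± 0.50 and Tfam, which packages mitochondrial DNA and starts its transcription, by -1.71 ± 0.18, whereas Tfb1m, a methyltransferase for mitochondrial ribosomal RNA, differed by 2.69 ± 0.27.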

How the data were processed

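RNA of 24 samples was measured on Affymetrix arrays. The deposited values are log2 signals per probe set, made by the authors with GCRMA per the submitters' processing notes, which give no version. GCRMA corrects background, normalizes quantiles and summarises probes, so dim probe sets pile up at a floor (2.15 here, 36.8% to 43.1% of probe sets per array), and small differences near it have no meaning. Array medians ran from 2.39 to 2.86. Precision is limited by 3 arrays per group.

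Of 45101 probe sets, 34945 were annotated to 1 gene, 932 to several and 9224 to none. Each gene was read from its probe set with the highest mean. A linear model with 1 mean per group over all 24 arrays was fitted with limma (version 3.58.1, R 4.3.3) to the deposited log2 values, and p-values were adjusted (Benjamini-Hochberg) over the 11208 genes above the array median on at least 3 arrays. A gene was called at an adjusted p under 0.05 with no minimum change, in 12 comparisons. Cox6b2, Cox7a1 and Ndufb1 met the condition on the median through the germinal center or plasma cell arrays where they are high. Where none of the 3 arrays of a group exceeded its median, a fold is given as a lower bound against that median. Several comparisons share the follicular arrays. Recovery of known changes was tested on simulated data, for stimulated against follicular cells. Of 50 genes changed by 0.5 on the log2 scale, 20% were recovered. For changes of 1, 1.5 and 2 the shares were 62%, 92% and 92%, and there were 10 false calls. Far fewer genes were changed there than were called in the data, so recovery in the data may differ.

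The members, lists and parts of complexes were chosen with earlier results of these data known. Named genes are, per comparison, up to 6 largest rises and falls, members with the widest and the narrowest range per complex, isoform families, members not tested, members called against the median of their complex and up to 4 genes of a list. Probe sets with several genes are not counted. Of 82 chosen probe sets, 48 have names that mark possible cross-hybridization. Same-numbered samples did not deviate together (correlations -0.496 to 0.445), so the replicate numbers were not taken as pairs. Alternatives were another filter, quantile normalization, a common upper quartile, the mean of probe sets, cross-hybridizing probe sets left out, a trended and robust prior, the replicate number as a block, only the compared groups, a minimum change and each array left out. Counting the 4 Sdhaf genes and the interaction were added after the data were seen. Python 3.11.15 with matplotlib 3.10.9 drew the figures.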

Additional observations from a re-analysis of the deposited data

How the results depend on the processing

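Under the other settings and with each array left out, the F test called 55 to 74 of the genes, 55 of them where cross-hybridizing probe sets were left out and fewer genes could be tested. No count of higher or lower genes crossed to the other side for germinal center, plasma or stimulated cells against follicular cells. A minimum log2 change of 1 left 8 higher and 3 lower on stimulation, 10 higher in germinal center cells of day 7 and 4 higher and 0 lower of day 40, 25 and 1 in plasma cells, 1 and 0 in day 7 memory cells, 5 and 1 and, on day 40, 10 in germinal center against memory cells, and 8 and 1 in plasma against germinal center cells, and 0 in each direction for marginal zone cells, day 40 memory against follicular cells and day 40 against day 7 memory cells. Of all genes tested, that change left 16.9% higher and 22.4% lower on stimulation. It left 14.4% and 16.6% in day 7 and 16.8% and 15.6% in day 40 germinal center cells, and 20.3% and 22.4% in plasma cells. For germinal center against memory cells it left 11.6% and 12.1% on day 7 and 15.3% and 12.6% on day 40. The share of subunit genes higher was below that of all genes except in plasma against follicular cells. A common upper quartile gave 57 higher on stimulation, 1 for marginal zone cells, 2 lower for day 7 memory cells, 1 lower for plasma cells, 3 lower for plasma against germinal center cells and 0 for germinal center cells of day 40 against day 7. Only the compared groups in the fit gave 25 higher and 1 lower for germinal center against memory cells of day 7, 5 lower for memory cells between the days, 2 lower for day 40 germinal center cells and 0 higher and 1 lower between the germinal center days. Without cross-hybridizing probe sets, 2 were lower in each of day 40 memory and day 7 germinal center against follicular cells and day 40 germinal center against memory cells. The mean of the probe sets gave 3 higher for marginal zone cells, 1 lower for plasma cells and 0 lower for germinal center against memory cells of day 40. No filter gave 2 higher in day 40 memory cells, 1 lower in day 7 germinal center against memory cells and 0 between the germinal center days. Quantile normalization gave 2 lower in day 40 germinal center cells and, between the germinal center days, 0 higher and 1 lower, and the trended prior gave 2 and 1 lower there. With the Sdhaf genes, 1 was lower in day 7 and 2 in day 40 germinal center cells and 1 was higher between memory days.

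The replicate number as a block, although the numbers did not pair the samples, gave 36 higher on stimulation, 63 in plasma cells, 1 and 2 lower in day 7 and day 40 germinal center cells against follicular cells, 14 lower between the memory days and 0 higher between the germinal center days.

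With each array left out, the higher and lower counts against follicular cells ran from 31 to 38 and 5 to 8 on stimulation, 1 to 6 and 0 to 0 in marginal zone cells, 13 to 20 and 1 to 2 in day 7 memory cells, 1 to 2 and 3 to 6 in day 40 memory cells, 47 to 55 and 0 to 1 in day 7 and 39 to 50 and 0 to 1 in day 40 germinal center cells, and 62 to 64 and 1 to 3 in plasma cells. They ran from 28 to 45 and 1 to 2 for germinal center against memory cells on day 7, 47 to 53 and 0 to 2 on day 40, 21 to 24 and 4 to 6 for plasma against germinal center cells, 0 to 0 and 6 to 16 between the memory days and 0 to 1 and 0 to 1 between the germinal center days.

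Of 89 differences of named members under 1228 alternatives, 1075 kept direction and call, 146 lost the call and 7 reversed. With cross-hybridizing probe sets left out these were Ndufa12 on stimulation (-0.14), Uqcrq in day 40 germinal center against follicular (-0.18) and memory cells (-0.33), Atp5c1 in plasma against germinal center cells (0.58) and Ndufb2 between the memory days (0.11). With the mean of probe sets they were Ndufa3 in day 40 memory cells (0.10) and Atp5c1 in plasma against germinal center cells (0.16). The cause was not tested. In 84.3% of 401 called differences with another measured probe set, that probe set had the same sign.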

Other observations

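Some subunit genes were represented by probe sets that are annotated to several genes, mostly a gene and its near copy, and so were not counted among the members. The probe set of Ndufs6 and Ndufs6b had a group mean of 11.14 ± 0.60 (SD, n = 3) in follicular cells, 12.57 ± 0.19 in stimulated cells, 12.27 ± 0.26 in day 7 germinal center cells and 13.30 ± 0.20 in plasma cells. The probe set of Ndufa11 and Ndufa11b stood at 10.90 ± 0.16 in follicular, 12.15 ± 0.15 in day 7 germinal center and 12.80 ± 0.04 in plasma cells. A brighter probe set of Ndufb4 and its copies, at 12.16 ± 0.25 in follicular and 12.24 ± 0.09 in day 7 germinal center cells, was highest in stimulated cells at 13.43 ± 0.23 and stood at 12.79 ± 0.11 in plasma cells. Which of the copies gave the signal cannot be told apart.

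How far a subunit gene varied across the groups went with its level. The 12 members with a mean of 14 or more had a median range of group means of 0.75, the 26 between 13 and 14 one of 0.86, the 16 between 12 and 13 one of 1.33 and the 18 between 10 and 12 one of 1.53. All genes tested showed the same order, with medians of 0.68, 1.08, 1.39 and 1.75. The median of the members was thus above that of all genes at a mean of 14 or more and below it in the other 3 of these classes. For the 3 members with a mean under 10 the median range was 4.01, above the 2.84 of all genes.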
